A study of Mus musculus with 7 samples.

Results

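The glutathione S-transferases described here are 10 mouse genes of the alpha, mu, pi and theta classes, chosen by symbol, and the deposited liver table held probes for 9 of them. They were Gsta2, Gsta3, Gsta4, Gstm1, Gstm2, Gstm3, Gstm6, Gstp1 and Gstt1. Gsta2 was read by 2 probes and each of the others by 1, so 10 of 23574 probes and 9 of 16468 named genes are at issue. No probe of the table was annotated to Gstm4, which is not analysed here. Liver RNA came from 3 mice carrying a Zfp90 transgene (1 female, 2 males) and 4 wild-type littermates (1 female, 3 males). Each animal's RNA was hybridised to a 2-colour array together with liver RNA pooled from 4 wild-type males and females. The labels give Cy5 for the animal and Cy3 for the pool, and the series text says that dye swaps were used. Zfp90 encodes a zinc finger protein that acts as a transcription regulator. The promoter and line of the transgene, the strain and the age are not given in the sources used here. RNA was amplified before labelling.

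Glutathione S-transferases join the thiol of glutathione to electrophiles such as drug metabolites, epoxides and lipid aldehydes, which prepares them for export in bile or breakdown to mercapturates. The soluble enzymes work as dimers within a class, and many genes of a class lie in clusters that arose by duplication. Of the alpha genes here, Gsta2 and Gsta4 are on chromosome 9 and Gsta3 is on chromosome 1. In rodent liver they are abundant hepatocyte proteins, several are inducible through NRF2, CAR and PXR, and some differ between the sexes.

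The sequences just before the transcription start are shown for 3 reasons: the alpha and pi genes have close copies beside them, Gstm1 had the smallest genotype p of the family, and Gsta3 held a motif searched for. All are from RefSeq (GRCm38.p6), 5′ to 3′ on the gene's strand and 250 bases long, ending at the base before the start, and 9 of the 10 listed genes (8 of the 9 measured) had an entry. Where several starts were listed, as for Gstm1 with 2, the most downstream one was used. Gsta2 (chr9:78347146-78347395, minus strand) and its relative Gsta1 (chr9:78230419-78230668, plus strand) share a 29-base run, in capitals.
Gsta2: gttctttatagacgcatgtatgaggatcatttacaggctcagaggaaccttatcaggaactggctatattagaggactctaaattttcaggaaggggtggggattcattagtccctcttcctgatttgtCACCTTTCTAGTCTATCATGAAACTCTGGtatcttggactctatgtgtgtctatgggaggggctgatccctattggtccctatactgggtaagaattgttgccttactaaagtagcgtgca
Gsta1: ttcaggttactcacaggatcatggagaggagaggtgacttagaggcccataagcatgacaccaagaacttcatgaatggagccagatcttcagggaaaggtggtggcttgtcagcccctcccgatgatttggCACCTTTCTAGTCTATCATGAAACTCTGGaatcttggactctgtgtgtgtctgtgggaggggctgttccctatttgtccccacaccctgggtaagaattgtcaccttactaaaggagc
Gstp1 (chr19:4037913-4038162, minus strand) and the neighbouring Gstp2 (chr19:4042222-4042471, minus strand) share a 43-base run, in capitals.
Gstp1: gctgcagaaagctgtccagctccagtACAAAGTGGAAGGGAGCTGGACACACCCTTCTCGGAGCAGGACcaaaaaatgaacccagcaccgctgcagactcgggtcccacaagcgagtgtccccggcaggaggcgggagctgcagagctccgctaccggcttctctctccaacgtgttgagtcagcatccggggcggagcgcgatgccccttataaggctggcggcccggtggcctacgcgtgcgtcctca
Gstp2: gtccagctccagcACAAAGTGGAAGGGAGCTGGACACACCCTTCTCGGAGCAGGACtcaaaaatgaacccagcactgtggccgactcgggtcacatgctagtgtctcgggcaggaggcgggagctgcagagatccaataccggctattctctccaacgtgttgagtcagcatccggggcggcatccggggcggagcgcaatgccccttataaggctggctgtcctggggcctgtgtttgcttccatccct
In Gstm1 (chr3:108017819-108018068, minus strand) capitals mark the aryl hydrocarbon receptor core GCGTG, and in Gsta3 (chr1:21240335-21240584, plus strand) the antioxidant response core TGACNNNGC.
Gstm1: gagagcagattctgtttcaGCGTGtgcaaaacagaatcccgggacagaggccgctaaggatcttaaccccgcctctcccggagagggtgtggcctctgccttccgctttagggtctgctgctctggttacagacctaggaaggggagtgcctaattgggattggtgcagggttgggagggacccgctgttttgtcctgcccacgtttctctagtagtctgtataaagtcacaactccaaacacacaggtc
Gsta3: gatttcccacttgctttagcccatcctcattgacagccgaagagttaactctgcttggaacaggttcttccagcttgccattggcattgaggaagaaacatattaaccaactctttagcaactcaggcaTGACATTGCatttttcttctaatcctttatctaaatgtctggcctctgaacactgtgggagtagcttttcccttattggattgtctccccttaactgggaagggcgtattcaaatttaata

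In a global alignment with gaps allowed, the alpha pair matched at 76% of the 250 bases and the pi pair at 83.2%, against 52.8% to 64.8% in the other 53 pairs of these promoters, whose longest shared runs were 7 to 13 bases. The messenger RNAs of Gsta1 and Gsta2, and of Gstp1 and Gstp2, are also close copies in the mouse, as are several mu genes. Neither Gsta1 nor Gstp2 had a probe annotated to it, and probe sequences were not used here. Values for Gsta2, Gstp1 and the mu genes may therefore include RNA of their neighbours, and whether the probes separate the copies was not tested. On either strand, the antioxidant core TGACNNNGC was in 1 of the 9 promoters (Gsta3), against 10.2% of 32851 mouse promoters of this length. Only this spelling was searched for, so promoters without it may hold variants of the core. The AP-1 motif TGANTCA was in Gstp1 alone of the 9, starting 74 bases before the start, against 6.75% of all. It was in Gstp2 too. The palindromic STAT motif TTCNNNGAA was in Gstm6 alone, against 7.02%, and GCGTG was in Gsta2, Gstm1 and Gstp1, against 28.2%. No matches of different motifs overlapped in these 9 promoters.

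All values below are log2 ratios of an animal to the pool, or differences between such ratios, and 0 means a level equal to the pool. A ratio to liver gives no absolute level, so levels of different genes cannot be compared. The 14 measured hepatocyte markers had a median ratio between -0.06 and 0.01 on every array. The direction of the deposited ratios was read from the Y-linked Kdm5d, at -2.54 and -3.22 in the females and 0.14 to 0.66 in the males. The signs of all differences given here rest on that direction. Correlations over all probes were below -0.3 for 3 of the array pairs (lowest -0.497), and the reason was not tested. Zfp90 read 0.34, 0.58 and 0.45 in the transgenic animals, against -0.15, -0.29 and -0.11 in the wild-type males, while the array labelled wild-type female gave 0.37 (difference 0.48 ± 0.15 SE, limma, adjusted p = 0.678). That array thus goes against its label in this gene, and it is called by that label, as the female-labelled wild-type array, throughout.

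Most of the 9 genes read higher in transgenic than in wild-type liver, by small amounts, and none passed the threshold. In limma with sex in the model, differences ran from -0.10 (Gstm6) to 0.73 (Gsta2), 8 of 9 lay above 0, and the median was 0.24, against 48.2% above 0 and a median of -0.01 over all 22218 features. Of the 8, Gstp1 was at 0.00. At an adjusted p under 0.05 the count was 0 of 9, as it was over all features (0%). At an unadjusted p under 0.05 it was 4 of 9, all higher (Gstm1, Gstm2, Gsta3 and Gsta4), against 6.91% of all features (3.82% higher and 3.10% lower in transgenic animals). That 4 became 1 without the transgenic female or the female-labelled wild-type array. With sex in the model a single remaining female does not enter the genotype estimate, so both fits equal that of the males alone. It also became 1 without transgenic male 1, and 2 without wild-type male 4. The family's median ratio was 0.25, 0.25 and 0.11 in the transgenic female and males 1 and 2, against -0.12 on the female-labelled wild-type array and 0.16, -0.02 and -0.01 in wild-type males 2, 3 and 4. Wild-type male 2 lay among the transgenic animals in this median. In the female pair 8 of 9 genes were higher in the transgenic animal, by a median of 0.43, against 52.2% of all features. Genes of 1 family measured on the same arrays are not independent of each other. These genes were also chosen with earlier results of these data known, so the shares over all features do not test them. The 17 other measured genes of the glutathione transferase and microsomal families, given below, had a median difference of -0.01. In whole liver, a change in the number of cells of a type and a change in RNA per cell cannot be told apart.

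**Figure D1:**
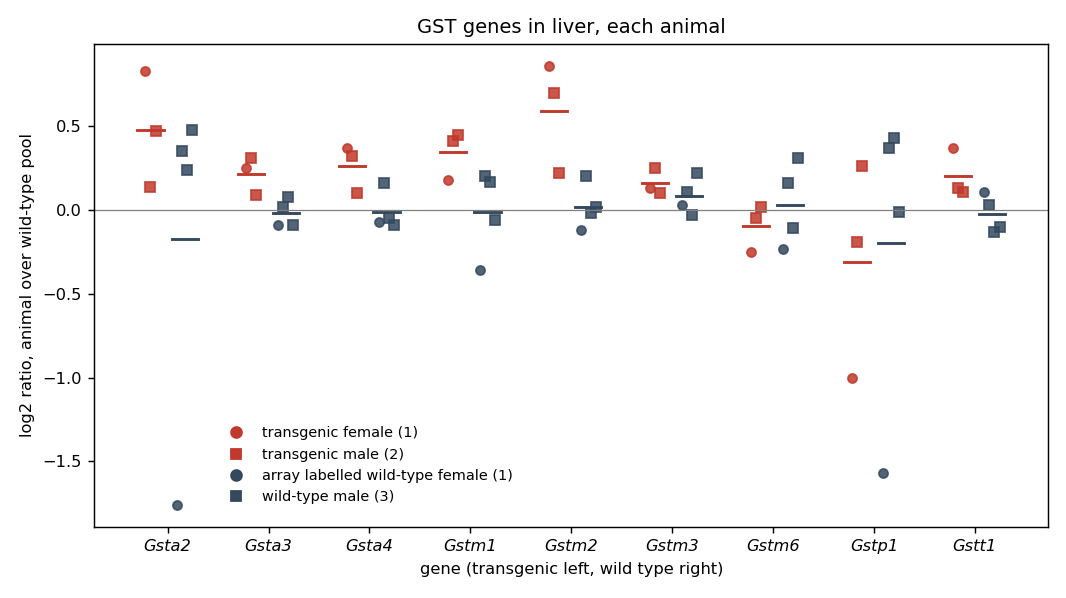
Log2 ratio to the pool (vertical axis) for each of the 9 genes (horizontal axis), with transgenic animals left in red and wild-type animals right in blue. Circles are females, squares males and bars the group means. Gstm2 and Gsta3 do not overlap between genotypes, and Gsta2 (-1.76) and Gstp1 (-1.57) lie far below the rest on the female-labelled wild-type array.

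The mu class held the pair with the smallest p. Gstm2, a mu-class enzyme that in humans also conjugates catechol quinones, read 0.86, 0.70 and 0.22 in the transgenic female and males 1 and 2. In wild type it read -0.12 on the female-labelled array and 0.20, -0.02 and 0.02 in males 2, 3 and 4. Every transgenic animal lay above every wild-type one, though transgenic male 2 exceeded wild-type male 2 by little. The means were 0.59 ± 0.33 in transgenic (SD, n = 3) and 0.02 ± 0.13 in wild-type animals (SD, n = 4), a difference of 0.57 ± 0.17 SE (1.48-fold, 95% interval 0.18 to 0.95) at an adjusted p of 0.677. In the 5 males alone the difference was 0.39 ± 0.17 SE (95% interval -0.01 to 0.79).

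Gstm1, a major mu-class enzyme of mouse liver, read 0.18, 0.41 and 0.45 in the transgenic female and males 1 and 2. It read -0.36 on the female-labelled wild-type array and 0.20, 0.17 and -0.06 in wild-type males 2, 3 and 4. Within each sex the transgenic animals were higher, and the groups overlapped only because the transgenic female lay just under wild-type male 2. The difference of 0.39 ± 0.10 SE (1.31-fold, 95% interval 0.15 to 0.63; adjusted p = 0.653) was 0.33 ± 0.12 SE in the males. Leaving out 1 animal at a time gave 0.33 to 0.43 for Gstm1 and 0.39 to 0.77 for Gstm2. The mu genes Gstm3 and Gstm6, from the same cluster on chromosome 3, had differences whose intervals spanned 0. Gstm3 was at 0.10 to 0.25 in the transgenic group and -0.03 to 0.22 in the wild-type group (difference 0.08 ± 0.10 SE, 95% interval -0.15 to 0.31). Gstm6 was at -0.25 to 0.02 in the transgenic group and -0.23 to 0.31 in the wild-type group (difference -0.10 ± 0.12 SE, 95% interval -0.38 to 0.17). Without 1 animal, Gstm3 ran from 0.04 (wild-type male 3 or transgenic male 1 left out) to 0.13 (transgenic male 2), and Gstm6 from -0.18 (wild-type male 3) to -0.04 (wild-type male 4).

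In the alpha class, Gsta3 and Gsta4 showed small differences in the same direction. Gsta3, which in the mouse detoxifies aflatoxin epoxide, read 0.25, 0.31 and 0.09 in the transgenic female and males 1 and 2, against -0.09 on the female-labelled wild-type array and 0.02, 0.08 and -0.09 in wild-type males 2, 3 and 4. The genotypes did not overlap, but transgenic male 2 and wild-type male 3 were nearly level. The difference was 0.24 ± 0.10 SE (1.18-fold, adjusted p = 0.721). Gsta4, which conjugates the lipid peroxidation product 4-hydroxynonenal, read 0.37, 0.32 and 0.10 in the transgenic animals, against -0.07 on the female-labelled wild-type array and 0.16, -0.05 and -0.09 in the wild-type males. It overlapped between genotypes through wild-type male 2, and its difference was 0.27 ± 0.11 SE (1.21-fold, adjusted p = 0.721).

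Of the 9 genes, Gstm2 and Gsta3 were the 2 that did not overlap between genotypes, both higher in transgenic animals, against 3.17% of all features higher without overlap and 2.84% lower, 6.01% in all. The count was 4 without wild-type male 2 or without transgenic male 2. Leaving out an animal can only keep or raise such a count, in any feature, and the share over all features was not taken there. In the males alone 4 genes did not overlap, all higher (Gsta3, Gstm1, Gstm2 and Gstt1), where 11.2% of all features were higher without overlap. None was called in the males (0.0315% of all features were), with adjusted p of 0.655 or more and 1 gene, Gstm1, at an unadjusted p under 0.05 (6.96% of all features, 3.92% being higher). In males 6 of 9 differences were above 0, with a median of 0.18, against 44.6% above 0 and a median of -0.02 over all features. Gstt1, the theta-class enzyme that acts on small halogenated compounds such as dichloromethane, read 0.37, 0.13 and 0.11 in transgenic animals, against 0.11 on the female-labelled wild-type array and 0.03, -0.13 and -0.10 in wild-type males. Transgenic male 2 and the female-labelled wild-type array met at 0.11, and the difference was 0.20 ± 0.09 SE (1.15-fold, adjusted p = 0.722).

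**Figure D2:**
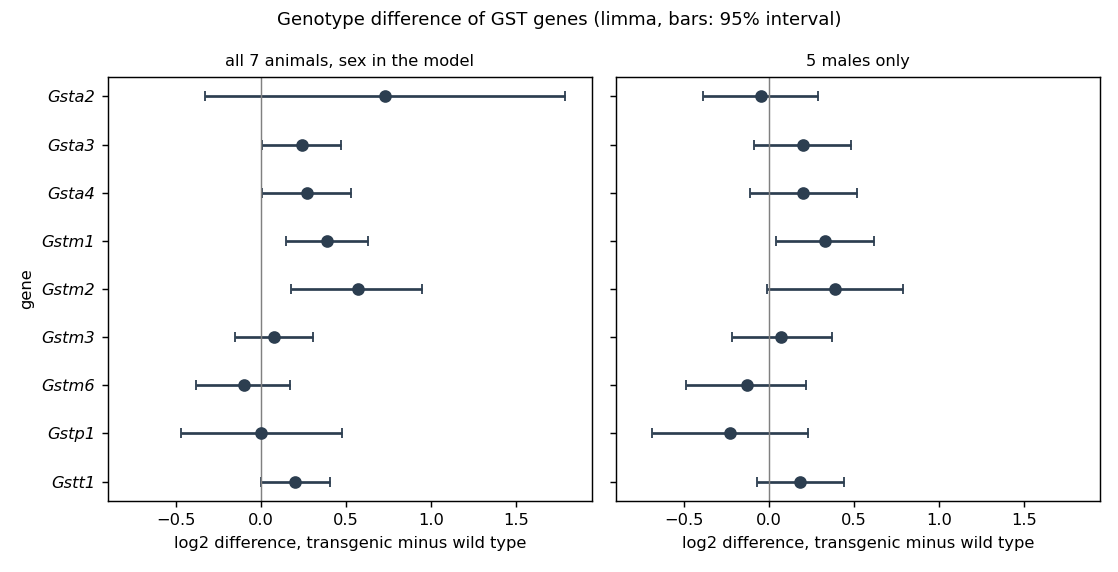
Difference in log2 ratio, transgenic minus wild type (horizontal axis), for each gene (vertical axis), fitted over all 7 animals with sex in the model (left) and in the 5 males (right). Points are limma estimates and bars 95% intervals. Gstm1 (0.39 and 0.33) changes little between the panels, while Gsta2 is 0.73 on the left and -0.05 on the right.

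Gsta2, an inducible alpha-class enzyme, had the largest fitted difference of the family, which rested on 1 array. It read 0.83, 0.14 and 0.47 in the transgenic female and males 1 and 2. Wild-type males 2, 3 and 4 read 0.35, 0.24 and 0.48, and the female-labelled wild-type array read -1.76. Among males the genotypes overlapped, with a difference of -0.05 ± 0.14 SE (95% interval -0.39 to 0.29), while the female pair differed by 2.59, or 6.02-fold. That size was rank 24 of all 22218 features for this pair. Both probes showed the low array, at -1.43 and -2.09, beside 0.73 and 0.93 in the transgenic female. Over all animals the difference was 0.73 ± 0.45 SE (95% interval -0.33 to 1.79; adjusted p = 0.789). The means of the linear ratios were 1.42 in the transgenic and 1.04 in the wild-type animals.

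The genotype difference of Gsta2 was larger in females than in males by 2.64 ± 0.26 SE (95% interval 2.01 to 3.26), an interaction called in limma at an adjusted p of 0.048, beside 0.0720% of all features. It was the 1 gene of the 9 called, and also the 1 at an unadjusted p under 0.05, against 8.42%, and the spread behind it comes from the males, with 1 female per genotype. The call ended without wild-type male 2 (adjusted p = 0.273), wild-type male 3 (0.0597), transgenic male 1 (0.149) or transgenic male 2 (0.115), and held without wild-type male 4 (0.0246). It held for 1 probe on its own (0.0118) and not for the other (0.142), and adjusted p ran from 0.00656 to 0.700 over the alternatives. Sex, label and single animal cannot be told apart here. Bile duct markers, Kupffer cell markers and red cell markers on that array had medians of -0.07, 0.79 and -0.58, and their part in the low Gsta2 value was not tested.

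Gstp1, a pi-class enzyme known to be higher in male than in female mouse liver, separated the sexes. It read -1.00 in the transgenic female and -1.57 on the female-labelled wild-type array. In males it read -0.19 and 0.26 (transgenic) and 0.37, 0.43 and -0.01 (wild type). Both females lay below all 5 males, as in 6.83% of all features (both lay above all males in 6.04%). The sex difference, female minus male, was -1.46 ± 0.22 SE, 2.75-fold lower in females (95% interval -1.98 to -0.94), and its adjusted p of 0.0572 fell just short of the threshold. With a single female left, it was -1.84 without the transgenic female and -1.04 without the female-labelled wild-type array. Leaving out transgenic male 1 gave -1.61 (limma, adjusted p = 0.0403). The other males left out gave adjusted p of 0.157, 0.0584 and 0.111 (wild-type males 2, 3 and 4) and 0.173 (transgenic male 2). Adjusted p was 0.190 with quantile normalization and 0.733 with trend on the mean absolute ratio. It was 0.0551 to 0.0591 with centring, single probes or the robust variance model. It fell under the threshold without a genotype term (0.0360), in named genes (0.0491) and in features with the largest ratios (0.00357). By genotype Gstp1 differed by 0.00 ± 0.20 SE (95% interval -0.47 to 0.48), with 0.57 between the females and -0.23 ± 0.19 SE in the males. In the males the genotypes overlapped.

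None of the 9 genes was called by sex, against 0.351% of all features, and 2 (Gstp1 and Gstm1) had an unadjusted p under 0.05 against 9.23%. Gstm6 was the other gene with both females below all males, at -0.25 and -0.23 in females against -0.11 to 0.31 in males (difference -0.29 ± 0.13 SE, adjusted p = 0.562). Gstm1 had a sex difference of -0.36 ± 0.11 SE (adjusted p = 0.366), whereas Gsta3 and Gsta4 had -0.02 ± 0.11 and 0.04 ± 0.12 SE. Without the transgenic female 2 members were called, Gstp1 and Gsta2 (-2.11, adjusted p = 0.00572), which for Gsta2 rests on the single low array.

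**Figure D3:**
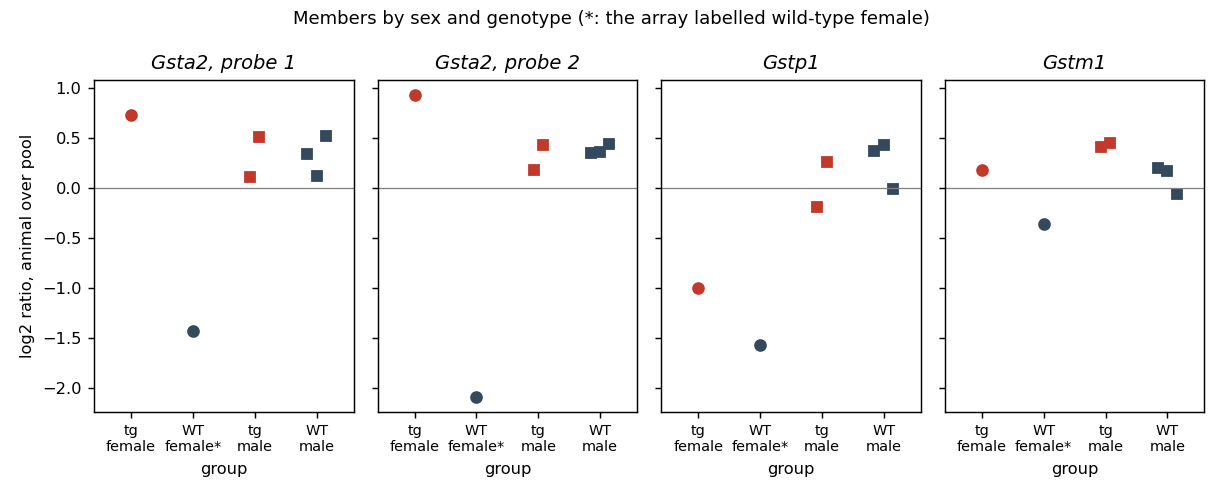
Log2 ratio to the pool (vertical axis) by sex and genotype (horizontal axis) for both Gsta2 probes, Gstp1 and Gstm1. Circles are the females, squares the males, red transgenic and blue wild type. Both Gsta2 probes are low on the female-labelled wild-type array (-1.43 and -2.09), and Gstp1 is low in both females.

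Among 17 other measured genes of the glutathione transferase and microsomal (MAPEG) families, 8 differences were above 0 and 9 below, with a median of -0.01 and 0 called. At an unadjusted p under 0.05 in limma, 2 were higher and 1 lower, against 3.82% and 3.10% of all features. Gstk1, the kappa-class enzyme of mitochondria and peroxisomes, read 1.19, 0.39 and 0.30 in the transgenic group and -0.21 to 0.11 in the wild-type group, without overlap (difference 0.63 ± 0.14 SE, adjusted p = 0.576). Gstt3, a theta-class neighbour of Gstt1, read 1.30, 0.28 and 0.08 in transgenic animals, against 0.71 on the female-labelled wild-type array and -0.69 to -0.08 in wild-type males (0.50 ± 0.17 SE, adjusted p = 0.707). Gsto1, an omega-class thioltransferase, went the other way without overlap, at -0.47 to -0.35 in the transgenic group and -0.27 to 0.29 in the wild-type group (-0.44 ± 0.12 SE, adjusted p = 0.665). Mgst1, the microsomal enzyme of liver, differed by -0.18 ± 0.14 SE. Gstp3 and Gstm5, cluster neighbours of Gstp1 and the mu genes, differed by -0.06 ± 0.09 and 0.13 ± 0.14 SE. Of the other transferases, Gstt2, Gstt4, Gsto2, Gstz1 and Gstcd differed by -0.11 to 0.04, and Hpgds, Mgst2, Mgst3, Ptges, Alox5ap and Ltc4s by -0.02 to 0.24. None of these 11 had an adjusted p under 0.848.

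The genes that supply and recycle glutathione did not lean one way. Of 23 measured, 10 were above 0 and 13 below, the median was -0.03, and 0 were called. Gclc, the catalytic subunit of the rate-limiting glutathione synthesis enzyme, read -0.68, -0.32 and -0.20 in transgenic animals, against -0.45 on the female-labelled wild-type array and 0.38, -0.19 and 0.51 in wild-type males (difference -0.42 ± 0.18 SE, adjusted p = 0.722). Pgd, an NADPH-producing enzyme of the pentose phosphate pathway, read 0.45, 0.68 and 0.89 in the transgenic group and -0.49 to 0.41 in the wild-type group (0.62 ± 0.22 SE, adjusted p = 0.718). The genotypes overlapped in Gclc and not in Pgd. Oplah, which recycles oxoproline to glutamate, and the gamma-glutamyltransferase family gene Ggt6 differed by -0.17 ± 0.09 and 0.20 ± 0.10 SE. Idh2, the mitochondrial NADPH source, was higher in females by 0.91 ± 0.10 SE (adjusted p = 0.0118), and the peptidase Lap3 differed by -0.63 ± 0.16 SE (0.243).

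Of 7 glutathione peroxidase genes, 5 differences were above 0 and 2 below, with 0 called. Gpx1, the main cytosolic peroxidase, read -0.49, -0.09 and -0.15 in transgenic animals, against -0.65 on the female-labelled wild-type array and 0.25 to 0.49 in wild-type males (-0.31 ± 0.14 SE, adjusted p = 0.731). Gpx8, a peroxidase of the endoplasmic reticulum, read 0.18 to 0.33 in the transgenic group and -0.07 to 0.11 in the wild-type group, without overlap (0.27 ± 0.10 SE, adjusted p = 0.718). Gpx7 and the secreted Gpx3 differed by 0.31 ± 0.20 and 0.15 ± 0.11 SE. By sex, female minus male, Gpx1 differed by -0.72 ± 0.16 SE (adjusted p = 0.172) and Gpx7 by 0.80 ± 0.22 SE (0.288). Of 10 genes for conjugate export and mercapturate formation, 4 were above 0 and 6 below, with 0 called by genotype. Nat8, which acetylates cysteine conjugates to mercapturates, differed by 0.65 ± 0.19 SE (adjusted p = 0.677), and Acy1, which deacetylates mercapturates, by 0.19 ± 0.08 SE (0.725). By sex, female minus male, Nat8 differed by -4.19 ± 0.21 SE (adjusted p = 0.000305) and the export pump Abcg2 by -1.79 ± 0.11 SE (0.000645), both lower in females. The conjugate pumps Abcc2 and Abcc3 differed by genotype by -0.22 ± 0.13 and -0.33 ± 0.13 SE, neither called.

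Regulators known to act on these genes gave 0 calls by genotype: 7 of 21 differences lay above 0, with a median of -0.07. The xenobiotic receptor CAR (Nr1i3) read -0.30 to -0.15 in the transgenic group and -0.12 to 0.19 in the wild-type group, without overlap (-0.21 ± 0.10 SE, adjusted p = 0.731), and Ahr differed by -0.60 ± 0.29 SE (0.742). The liver factor Foxa2 and the NRF2 inhibitor Keap1 differed by -0.35 ± 0.16 and 0.31 ± 0.17 SE. By sex, Cux2, a repressor made in female liver, was higher in females by 1.63 ± 0.20 SE (adjusted p = 0.0248), and the growth hormone receptor Ghr differed by -0.53 ± 0.12 SE (0.174). NRF2 targets outside the family split evenly, with 11 above and 11 below 0 and a median of 0.03. At an unadjusted p under 0.05 in limma, 3 were higher and 2 lower, against 3.82% and 3.10% of all features. The higher ones were the haem oxygenase Hmox1, by 0.93 ± 0.20 SE (adjusted p = 0.55), the malic enzyme Me1, by 0.41 ± 0.13 SE (0.677), and the quinone reductase Nqo1, by 0.30 ± 0.10 SE (0.718). The lower ones were Abcc3 and Gclc, also given above, by -0.33 ± 0.13 SE (0.720) and -0.42 ± 0.18 SE (0.722). By sex, the export pump Abcc4 was higher in females by 0.97 ± 0.12 SE (adjusted p = 0.0267), and Aox1 differed by -1.20 ± 0.18 SE (0.0566). Of 14 CAR and PXR targets 10 lay above 0 and 4 below, with a median of 0.04, against 48.2% above 0 over all features. At an unadjusted p under 0.05 in limma there were 6, all higher, where 3.82% of all features were higher. Over all animals 0 were called. In the males alone 2 were called, both higher and both among the 7 features called there: Cyp2b9 by 2.29 ± 0.18 SE and Cyp2b13 by 2.33 ± 0.17 SE (limma, adjusted p = 0.026 for each). Cyp2b9, a cytochrome P450 known to be higher in female mouse liver, read 1.97, 0.11 and -0.41 in the transgenic female and males, against 1.66 on the female-labelled wild-type array and -2.52, -2.51 and -2.27 in wild-type males. Cyp2b13, of the same subfamily, read 1.64, -0.64 and -1.06 in the transgenic group, against 1.73 on that array and -3.37, -3.20 and -2.98 in wild-type males. In both genes the transgenic males lay between the wild-type males and the females. Over all animals Cyp2b9 differed by 1.71 ± 0.36 SE (adjusted p = 0.549) and Cyp2b13 by 1.62 ± 0.43 SE (0.653). By sex, Cyp2c37 was higher in females by 1.99 ± 0.25 SE (adjusted p = 0.0247) and Cyp2b9 by 3.16 ± 0.39 SE (0.0248). Cyp2b10, the usual CAR marker, read 1.07, 0.38 and 0.52 in the transgenic group and -0.14 to 0.30 in the wild-type group (0.62 ± 0.09 SE, adjusted p = 0.475). Aldh1a7, a liver aldehyde dehydrogenase, read 0.87, 0.79 and 0.55 in transgenic animals, against -0.74 on the female-labelled wild-type array and 0.17, 0.11 and 0.17 in wild-type males (0.84 ± 0.20 SE, adjusted p = 0.629). Aldh1a7 was low on that array, while Cyp2b9, Cyp2b13, Cyp2c37 (1.31) and Gadd45b (1.28) were high on it.

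**Figure D4:**
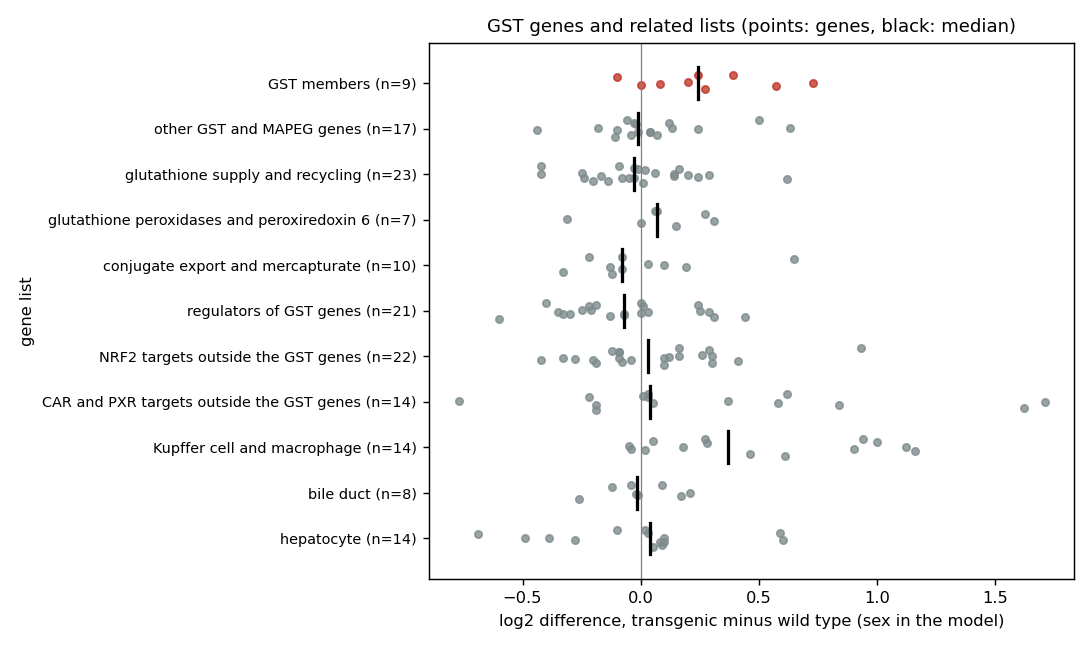
Difference in log2 ratio, transgenic minus wild type with sex in the model (horizontal axis), for each gene of the family and of 10 other lists (vertical axis). Points are genes and black bars medians. The family (median 0.24) and the Kupffer cell markers (0.37) sit right of 0, while the other lists have medians from -0.08 to 0.07.

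Markers of other cells were read on the same arrays. Kupffer cell and macrophage markers (14 of 15 measured) had a median difference of 0.37, with 12 above 0 and 0 called. Their median ratio was 0.16 to 0.41 in transgenic animals and -0.65 to -0.13 in wild-type males, but 0.79 on the female-labelled wild-type array, where the family's median was -0.12. Their part in the family's differences was not tested. Bile duct markers (8 of 10 measured) were read because in humans the pi-class enzyme is made in bile duct cells. Their median was -0.03 to 0.09 in the transgenic group and -0.07 to 0.04 in the wild-type group. It was -0.02 in the transgenic female and -0.07 on the female-labelled wild-type array. Single markers in the transgenic female ran from -0.61 (Epcam) to 1.6 (Krt23). The part of bile duct cells in the Gstp1 values was not tested. The 14 hepatocyte markers had a median difference of 0.04, with 9 above 0 and 0 called. Single markers moved both ways: at an unadjusted p under 0.05 in limma, 2 were higher and 3 lower. Over all features 3.82% were higher and 3.10% lower at that p. Medians for endothelial, stellate, lymphocyte, red cell, adipocyte and exocrine pancreas markers were 0.00, -0.01, -0.02, 0.22, -0.08 and 0.10, with 0 called in each.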

How the data were processed

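The deposited table gives a log10 ratio for each of 23574 probes in each animal, with values limited at -2 and 2. Per the labels, the channels were Cy5 (animal) and Cy3 (pool), and the series text says that dye swaps were used. Background correction, normalization, centring and how swaps were combined are not given in the sources used here. Signal over background is unknown. Ratios were multiplied by 3.32 to give log2. GEO's platform annotation gave 1 symbol for 17824 probes, several for 50 and none for 5700. Probes of a gene were averaged, giving 22218 features. Differences were fitted over all features with limma 3.58.1 (R 4.3.3; lmFit, eBayes), with genotype and sex as terms, in males alone, and with an interaction term. P-values were Benjamini-Hochberg adjusted over all features and called at 0.05. The fit was also run on simulated data, with noise drawn independently for each feature and array. That run does not speak to noise shared between arrays or features, or to a wrong label. Genes named were all members, the other transferases, Zfp90 and Kdm5d, and from each list of related genes up to 4 with the smallest genotype p and 2 with the smallest sex p. Gadd45b, Krt23 and Epcam were named after their values were seen. Arrays number 7, which limits the precision. Alternatives were centring, quantile normalization, other terms and variance models, single probes, other feature sets and leaving out each animal. The members and lists were chosen with earlier results of these data known.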

Additional observations from a re-analysis of the deposited data

Results flagged for a closer look

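Gsta2 stood apart on 1 of the 4 wild-type arrays, the one labelled female, at -1.76, where the gap to the next animal was 0.892 of the group's range. Its genotype difference also differed between the sexes by the interaction term, at 2.64. Gsta4 in wild-type male 2, at 0.16, stood apart from the other 3 wild-type animals in the same way, by 0.847 of a narrow range. About 1 in 20 such groups would do so by chance.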

How the results depend on the processing

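No paired analysis was possible because no label links a transgenic animal to a wild-type one. The count of 0 members called by genotype held under all 16 alternatives, and the family's median stayed between 0.18 and 0.32 when 1 animal was left out. Among these alternatives, males only, without the transgenic female and without the female-labelled wild-type array are the same genotype fit. The causes of the shifts below were not tested, except that fewer samples or features enter some fits by construction. Leaving out an animal can only keep or raise a count without overlap, and no share over all features was taken for those counts. Trend on the mean absolute ratio gave 2 features called by genotype, 1 member at unadjusted p under 0.05, 2 features in males, 7 by sex, 2 by interaction and 0 members by interaction. The 50% of features with the largest ratios did not include Gsta3, which is without overlap in the main analysis, or Gstm3. That set gave 4 features by genotype, 2 members at unadjusted p and 1 without overlap. It also gave 41 features in males, 162 features by sex, 1 member by sex (Gstp1) and 57 features by interaction. Quantile normalization gave 1 member without overlap, 4 features in males, 49 by sex, 6 by interaction and 0 members by interaction. Males only gave 7 features, 1 member at unadjusted p and 4 without overlap. Named genes only gave 1 member by sex, 7 features by interaction and 0 members by interaction. Without a genotype term 1 member was called by sex. Centring and the robust variance model each gave 0 members by interaction. Leaving out 1 animal gave 0 to 7 features by genotype, 1 to 4 members at unadjusted p, 2 to 4 without overlap, 0 to 55 features in males, 36 to 254 features and 0 to 2 members by sex, and 4 to 77 features and 0 to 1 members by interaction, which could not be fitted without a female. Signs turned for Gsta2 by genotype (-0.05 in males only and without either female) and by sex (0.52 without the array labelled wild-type female), and for Gstp1 by genotype: -0.12 with quantile normalization and without a sex term, -0.23 in males only and without either female, and -0.05 without wild-type male 4 or transgenic male 2. Sex differences near 0 also turned: Gsta3 to 0.05 without the array labelled wild-type female and 0.01 without transgenic male 1, Gsta4 to -0.0017 with quantile normalization, -0.07 without the transgenic female and -0.02 without transgenic male 2, and Gstm2 to -0.002, -0.19 and -0.05 under the same 3 settings. Over single left-out animals the differences ran from -0.05 to 1.11 for Gsta2 and -0.23 to 0.23 for Gstp1 by genotype, 0.04 to 0.13 for Gstm3 and -0.18 to -0.04 for Gstm6. By sex they ran from -2.11 to 0.52 for Gsta2, -0.09 to 0.05 for Gsta3, -0.07 to 0.16 for Gsta4 and -0.19 to 0.40 for Gstm2.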

Other observations

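The linear ratios of the 4 wild-type animals to the pool averaged between 0.988 and 1.06 in each of the 9 genes, including Gsta2 (1.04) and Gstp1 (0.992). On the female-labelled wild-type array those genes read 0.295 and 0.336 on the linear scale. The labels do not say whether the pooled mice were these 4 animals.

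The female-labelled wild-type array was rank 55 from the bottom of 22218 features in Gsta2 and rank 67 in Gstp1. In linear terms the female pair differed by 1.98-fold in Gstm2 and 1.46-fold in Gstm1, higher in the transgenic female.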
